A study of Polypedilum vanderplanki with 33 samples.

Results

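Larvae of the sleeping chironomid Polypedilum vanderplanki can lose almost all of their water and return to activity when wetted, and the comparison described here is that of larvae 3 h after rewetting with larvae at the start of rewetting. RNA-seq libraries of whole larvae at 3 h of rehydration were set against libraries at 0 h of rehydration, that is, larvae that had been through dehydration. The comparison used 4 of the 33 libraries of the series, 2 at each time, taken by their labels. The comparison itself was chosen with earlier results of these data known. Of the 28415 genes in the count table, 17789 passed a filter on low counts and were tested.

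The labels give 2 batches, and each batch held 1 library at 3 h and 1 at 0 h, so that the pairs are batch 1 replicate 1 and batch 2 replicate 2. All larvae came from highly inbred lines reared on an agar and milk diet, polyadenylated RNA was extracted from whole larvae, and larval age and number per library are not given in the sources used here. No label says that replicates were raised or extracted apart, and p-values therefore measure only how far these samples differ, a spread that may be technical. A further library at 1 h of rehydration, from batch 1, served as an intermediate time. Larvae that were never dried are those at 0 h of dehydration (2 libraries, both of batch 1), and larvae at the end of drying are those at 48 h of dehydration (2 libraries, 1 per batch). Another library at 1 h, from batch 2, stood apart (its best correlation with another library was 0.650 across genes, Pearson, while every other library had one of at least 0.873) and was left out of the fit.

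Drying in this insect is known for the accumulation of the sugar trehalose and of late embryogenesis abundant proteins, which protect membranes and proteins as water is lost. On rewetting the larva breaks these stores down, repairs damaged macromolecules and restarts its metabolism. The title of the series concerns the heat shock regulatory system under desiccation, a set of genes controlled by heat shock factors that encode protein chaperones. The deposited files do not pair gene IDs with names and no ID matched the reference table, so genes of these pathways were not analysed by name. Genes are therefore given by ID, or by their place on a scaffold in the deposited annotation, whose genome build is not given in the sources used here.

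Libraries at 3 h held 26564125 counts (replicate 1) and 26177377 counts (replicate 2), and those at 0 h held 22468985 and 20869597 counts. Reads were spread over more genes at 3 h than at 0 h. The highest genes that together held 50% of the counts numbered 208 and 264 at 3 h, against 85 and 102 at 0 h, and 216 and 182 in undried larvae. The 100 highest genes took 38.0% and 34.1% of the counts at 3 h, against 52.8% and 49.8% at 0 h. At 1 h the library was still like the dry ones, with 104 genes for 50% of the counts and 49.5% for the 100 highest. Genes with a CPM (counts scaled to the library's total) of at least 1 numbered 13337 and 13874 at 3 h, against 11156 and 11235 at 0 h.

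**Figure D1:**
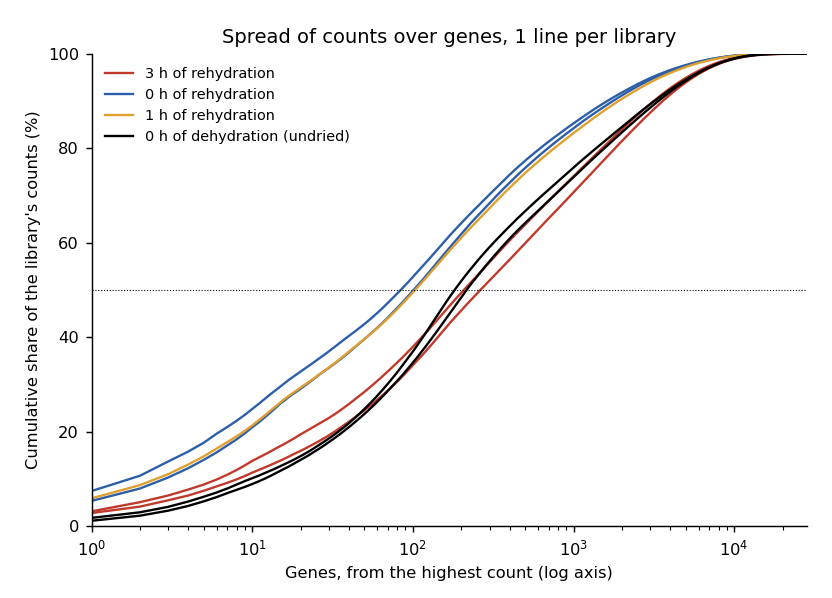
Cumulative share of each library's counts (y axis, percent) over genes ranked from the highest count (x axis, log scale), with 1 line per library at 3 h, 0 h and 1 h of rehydration and in undried larvae. The 3 h lines reach 50% at 208 and 264 genes, next to the undried lines, while the 0 h lines reach it at 85 and 102 genes and the 1 h line at 104.

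This difference in spread sets the scale of every fold change. The values below were scaled with TMM factors, which assume that most genes do not change relative to each other, and the 3 h libraries had factors of 1.11 and 1.27, those at 0 h of 0.619 and 0.637. With them the median log2 fold change of all tested genes was 0.08. It was 0.05 with RLE factors and -0.10 with upper quartile factors, but 0.99 when levels were taken per total count. A rise or fall below is thus relative to the bulk of the genes. In whole larvae, fewer cells of a type and less RNA per cell cannot be told apart.

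Across the transcriptome, 1750 genes rose and 1609 fell at 3 h against 0 h of rehydration, which is 9.84% and 9.04% of the tested genes (edgeR, adjusted p under 0.05). Among the called genes, rises were larger than falls by their medians. The 2 sets differed in level, as given below, and the part of level in this difference was not tested. The median log2 fold change was 1.91 among the genes that rose, with 1543 of them (8.67% of tested genes) up by at least 2-fold, 825 by at least 4-fold and 286 by at least 16-fold. These counts use fitted folds. For the 135 genes that had no count at 0 h, the lower bound of the fold, described below, had a median of 12.6. Not all of these 135 are thus shown to have risen 16-fold. With them set at that bound, the median log2 fold change of the genes that rose was also 1.91. Among the genes that fell the median was -1.14. By fitted fold 1072 (6.03% of tested genes) were down by at least 2-fold, 99 by at least 4-fold and 15 by at least 16-fold. Of the genes that fell 7 had no count at 3 h, and no bound was set for them. The genes that rose were at low to moderate levels, with a median of 19.6 CPM at 3 h and 5.22 CPM at 0 h, and those that fell were abundant, with a median of 55.2 CPM at 3 h and 119 CPM at 0 h. Per kilobase of exon, the medians were 10.8 at 3 h and 2.98 at 0 h for genes that rose and 33.0 at 3 h and 73.7 at 0 h for genes that fell, on the RPKM scale.

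The genes that fell held most of the reads of the dry larva. They took 56.2% and 54.5% of the counts at 3 h, against 75.9% and 71.4% at 0 h, without any scaling. In undried larvae they took 49.8% and 57.8%. The genes that rose took 8.59% and 9.69% of the counts at 3 h, against 1.38% and 1.59% at 0 h, and 5.78% and 5.22% in undried larvae. The genes were called on these same 3 h and 0 h libraries, so the direction of both shares was fixed by the choice of genes.

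The balance of rises and falls depended on the scaling. Of the called genes 52.1% were up with TMM factors, 39.9% with upper quartile factors (1468 up and 2215 down) and 98.1% per total count (4993 up and 99 down). Per total count, 1256 of the 1609 genes that fell were still lower at 3 h, with a median log2 fold change of -0.23, while the median of all tested genes stood at 0.99. Each of the 1750 genes that rose was also called up per total count. Leaving out 1 of the 4 libraries gave between 791 and 1148 genes up and between 778 and 950 down, and with the outlying 1 h library in the fit the counts were 139 and 33.

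A rise or fall seen in 1 batch could be read in the other, since the batches share no library. Of the 5105 genes at least 2-fold higher at 3 h in batch 1, 3086 (60.5%) were at least 2-fold higher in batch 2, where 27.5% of all tested genes were. Of the 3504 genes at least 2-fold lower in batch 1, 1556 (44.4%) were at least 2-fold lower in batch 2, where 18.1% of all tested genes were. A 2-fold move in the opposite direction in batch 2 was seen for 345 of the 5105 genes and for 373 of the 3504. Across the 17789 genes the Pearson correlation of the log2 changes in the batches was 0.52, and it was 0.81 across the 8354 genes with a mean of at least 5 CPM in the 4 libraries. For the called genes the batches are no check on each other, since the calls used both. As a description, the median log2 change of these genes was 2.01 in batch 1 and 1.76 in batch 2 for the genes that rose, and -1.10 and -1.15 for those that fell.

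**Figure D2:**
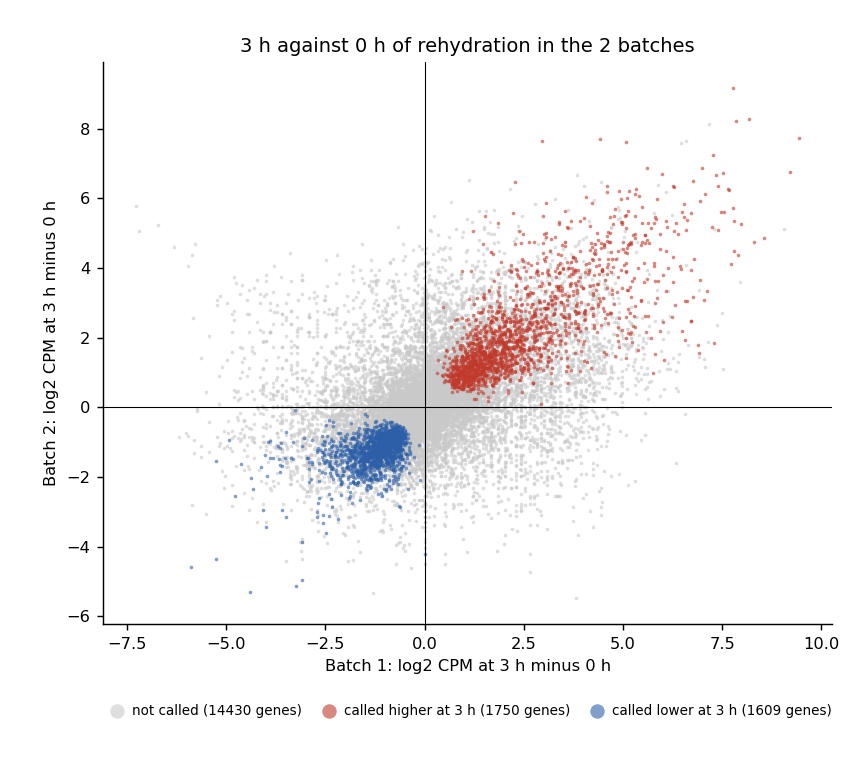
Log2 CPM at 3 h minus 0 h of rehydration in batch 1 (x axis) and in batch 2 (y axis), with 1 point per tested gene, colored by its call. The 1750 genes called higher lie in the upper right and the 1609 called lower in the lower left, a direction that the calls, made on both batches together, largely fix, and the rises reach further from the origin.

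The largest rises were of genes with no read at the start of rewetting. PvG014870, a single-exon model on the minus strand of scaffold 26388 (202 to 1081), had 22.5 and 24.11 CPM at 3 h, against 0 and 0 CPM at 0 h. It was at 3.84 CPM at 1 h, 14.6 CPM at 6 h and 1.58 CPM at 12 h of rehydration, and at 0 and 0.331 CPM in undried larvae. The gene was near absent in undried larvae and again by 24 h, when it was at 0.617 CPM. Against a floor of 3 counts over both 0 h libraries (0.110 CPM, TMM-scaled) it was at least 211-fold higher at 3 h (edgeR adjusted p = 0.0228). That call was lost when any 1 of the 4 libraries was left out (adjusted p between 0.0520 and 0.129) and in DESeq2 (adjusted p = 0.0918).

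PvG029989, a single-exon model on the plus strand of scaffold 77803 (2468 to 3644), had 17.7 and 23.0 CPM at 3 h, against 0 and 0 CPM at 0 h. It stood at 0.814 CPM at 1 h, 12.4 CPM at 6 h, 0.956 CPM at 12 h and 0 CPM at 48 h of rehydration, and both undried libraries were at 0. Among the libraries of rehydration and undried larvae it was over 1 CPM at 3 and 6 h alone. It was at least 186-fold higher against the same floor (edgeR adjusted p = 0.00280), and DESeq2 did not call it (adjusted p = 0.132). In all, 135 of the genes that rose had no count in either 0 h library, and 81 of these were at least 10-fold above the floor at 3 h. Only 1 of the 135 also had no count in the undried larvae, and 60 had none at 48 h of dehydration.

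The 2 deepest falls by log2 fold change were taken among genes with a mean of at least 5 CPM at 0 h whose libraries at 3 h all lay below those at 0 h, and deeper falls were fitted for genes outside this rule. PvG011214, on the plus strand of scaffold 210 (202061 to 204442, 2 exonic blocks), had 0.886 and 0.542 CPM at 3 h, against 20.2 and 24.4 CPM at 0 h. It had already dropped to 1.51 CPM at 1 h, stayed at 1.31 CPM at 6 h and 0.402 CPM at 12 h, and was at 8.37 CPM at 24 h and 33.0 CPM at 48 h. Undried larvae had 43.3 and 45.5 CPM, and larvae at 48 h of dehydration 36.5 and 19.6 CPM, so this gene was high at the start and the end of drying and low from 1 h to 12 h of rewetting. Its log2 fold change at 3 h was -4.97 ± 0.68 (SE; edgeR adjusted p = 7.90e-05), and the model overlaps a neighbour, with which it may share reads.

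PvG005303, on the minus strand of scaffold 1357 (9536 to 14357, 5 exonic blocks), had 0.136 and 1.08 CPM at 3 h, against 5.83 and 6.70 CPM at 0 h. Unlike PvG011214 it was still at 6.57 CPM at 1 h. Undried larvae had 0 and 0.571 CPM, and the gene had risen in drying. The log2 fold change was -3.91 ± 1.23 (SE; edgeR adjusted p = 0.0297), and the call was lost without the batch term (adjusted p = 0.0883) and on leaving out replicate 1 at 0 h or either library at 3 h (adjusted p between 0.0937 and 0.224).

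The genes that gained most in level at 3 h were at 30.9 to 237 CPM at 0 h and at 844 CPM or more at 3 h. A gene on the minus strand of scaffold 77834 (94262 to 96899, 4 exonic blocks) had 2721 and 2257 CPM at 3 h, against 73.2 and 84.6 CPM at 0 h. Its log2 fold change of 4.96 ± 0.39 (SE) is a 31.1-fold rise (edgeR adjusted p = 7.90e-08). The 1 h library, at 348 CPM, lay between, undried larvae had 223 and 315 CPM, and the level was 5141 CPM at 12 h. Between 0 h and 48 h of dehydration the gene had fallen past the threshold. At 1 h of dehydration, however, it was at 2392 and 3052 CPM, near its level at 3 h of rehydration. That 3 h level stood above the undried one by 3.34 on the log2 scale.

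On scaffold 98 a gene of the minus strand (196391 to 198737, 5 exonic blocks) had 1446 and 1644 CPM at 3 h, against 127 and 237 CPM at 0 h, an 8.48-fold rise (edgeR adjusted p = 0.00171). At 1 h it was at 206 CPM, within the range of the 0 h libraries, and it reached 7697 CPM at 24 h before 996 CPM at 48 h. Undried larvae had 188 and 160 CPM, close to the dry ones. The gene was not flat between them, since at 1 h of dehydration it was at 2140 and 2378 CPM, above its level at 3 h of rehydration.

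Scaffold 820 held 2 of the 5 genes with the largest gain, both on the plus strand with 2 exonic blocks. The gene at 70029 to 70591 had 844 and 1063 CPM at 3 h, against 33.9 and 32.3 CPM at 0 h, a 28.7-fold rise (edgeR adjusted p = 0.000286). It was at 119 CPM at 1 h of rehydration and at 33.6 and 18.8 CPM in undried larvae. It did not pass the threshold between 0 h and 48 h of dehydration, but at 1 h of dehydration it was at 337 and 269 CPM. The gene at 60348 to 61067 had 928 and 858 CPM at 3 h, against 47.5 and 37.4 CPM at 0 h, a 21.1-fold rise (edgeR adjusted p = 2.43e-05). In contrast to the first it was high in undried larvae, at 314 and 239 CPM, and had fallen by 48 h of dehydration. At 1 h of dehydration it was at 790 and 1001 CPM, and it reached 7695 CPM at 24 h of rehydration. Of the 63 tested genes of scaffold 820, which was looked at after these values were seen, 10 rose (15.9%, against 9.84% of all tested genes) and 3 fell (4.76%, against 9.04%).

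The remaining gene of this group, on the minus strand of scaffold 3720 (43828 to 54433, 6 exonic blocks), had 937 and 852 CPM at 3 h, against 38.7 and 30.9 CPM at 0 h, a 25.7-fold rise (edgeR adjusted p = 4.85e-05). It was at 61.4 CPM at 1 h, 743 CPM at 6 h, 208 CPM at 12 h and 107 CPM at 48 h, with 29.4 and 15.03 CPM in undried larvae. Its level was thus highest at 3 and 6 h, while the genes on scaffolds 77834 and 98 and the gene at 60348 of scaffold 820 were highest at 12 or 24 h. The gene at 70029 of scaffold 820 had 716 CPM at 6 h, 854 CPM at 12 h, 1156 CPM at 24 h and 251 CPM at 48 h, so it too was highest at 24 h, close to its 3 h levels. The model overlaps a neighbour. The call of every one of these 5 genes was kept when any 1 of the 4 libraries was left out.

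The genes that lost most in level were among the most abundant of the dry larva, and all 5 had risen in drying. A single-block gene on the minus strand of scaffold 5445 (112 to 3838) had 28524 and 22064 CPM at 3 h, against 120497 and 84199 CPM at 0 h. Of unscaled counts it took 3.15% and 2.80% at 3 h, against 7.45% and 5.36% at 0 h, and it fell 4.02-fold on the scaled values (log2 fold change -2.01 ± 0.23, SE; edgeR adjusted p = 5.50e-06). At 1 h it was at 83913 CPM, just under the lower of the 0 h libraries, and by 12 h it was at 2755 CPM, under the 9485 and 9631 CPM of undried larvae.

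A gene on the plus strand of scaffold 252 (1038691 to 1040097, 2 exonic blocks) had 11402 and 8005 CPM at 3 h, against 52250 and 31050 CPM at 0 h (log2 fold change -2.09 ± 0.24, SE; edgeR adjusted p = 7.97e-06). Its course was like that of the scaffold 5445 gene, with 32941 CPM at 1 h, 958 CPM at 12 h, and 3850 and 3671 CPM in undried larvae. A gene on the plus strand of scaffold 528 (305337 to 308384, 3 exonic blocks) had 12828 and 10679 CPM at 3 h, against 33907 and 27806 CPM at 0 h (log2 fold change -1.39 ± 0.22, SE; edgeR adjusted p = 0.000143). Both models overlap a neighbour. For the scaffold 5445, 252 and 528 genes the 3 h level was still above that of undried larvae past the threshold, by 1.55, 1.53 and 1.14 on the log2 scale.

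The other 2 genes of this group lie on the plus strand of scaffold 77936, each with 1 exonic block. The gene at 51401 to 52185 had 17558 and 10612 CPM at 3 h, against 48907 and 41242 CPM at 0 h, a 3.25-fold fall (edgeR adjusted p = 0.00422). The gene at 46452 to 48897 had 9640 and 5613 CPM at 3 h, against 30553 and 24558 CPM at 0 h, a 3.70-fold fall (edgeR adjusted p = 0.000945). The 3 h libraries of both lie well below the 0 h ones, with 3 h replicate 2 the lower. Against undried larvae the gene at 46452 was still higher at 3 h past the threshold, by 1.57 on the log2 scale, and the gene at 51401 did not pass (0.40). Both models overlap others, and the call at 51401 was lost without 3 h replicate 2 (adjusted p = 0.0723) and per total count (adjusted p = 0.10).

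**Figure D3:**
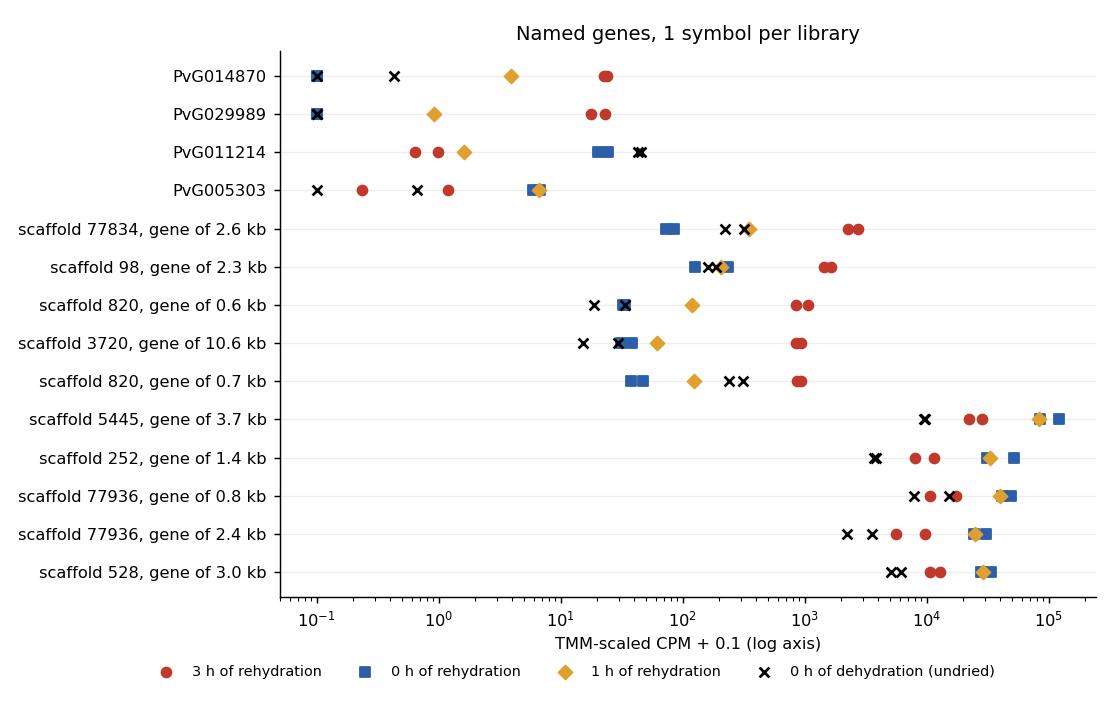
Level of each named gene (x axis, TMM-scaled CPM plus 0.1, log scale), with 1 symbol per library at 3 h, 0 h and 1 h of rehydration and in undried larvae (0 h of dehydration). From the top are the 2 largest rises, the 2 largest falls, the 5 largest gains and the 5 largest losses in CPM. The rule for naming a gene required all libraries of one time to lie above those of the other, so the 3 h and 0 h symbols are apart by choice, and the 1 h and undried symbols are not bound by it.

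Called genes often lay next to each other. Of the genes that rose and had a tested gene after them on the scaffold, 20.04% (310 of 1547) were followed by another that rose, where 9.84% of all tested genes rose, and 5.69% by one that fell. Of the genes that fell, 21.7% (304 of 1402) were followed by another that fell, where 9.04% of all tested genes fell. Among neighbours whose models do not overlap the shares were 16.05% and 16.34%. Whether strand was used in counting is not given in the sources used here, and overlapping models may share reads.

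The 5 longest runs of neighbouring genes up by at least 2-fold held 4 or 5 genes each. On scaffold 517 (489843 to 507645) 5 genes summed to 156 and 167 CPM at 3 h, against 20.3 and 18 CPM at 0 h, an 8.42-fold rise, and on scaffold 421 (176914 to 191578) 5 genes summed to 242 and 344 CPM at 3 h, against 42.1 and 43.3 CPM at 0 h. On scaffold 1299 (204014 to 211426) 4 genes summed to 699 and 709 CPM at 3 h, against 102 and 144 CPM at 0 h. None of these 4 passed the threshold between 0 h and 48 h of dehydration. Their sum was 104 and 96.2 CPM in undried larvae and 102 and 91.7 CPM at 48 h of dehydration. At 1 h of dehydration it was 217 and 260 CPM. All 4 genes stood above the undried level at 3 h of rehydration. The run was back at 104 CPM at 48 h of rehydration.

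The 4 genes on scaffold 2905 (4903 to 25721) summed to 91.2 and 107 CPM at 3 h, against 14.97 and 33.4 CPM at 0 h, and the 4 on scaffold 126 (185399 to 191346) to 99.9 and 90.5 CPM at 3 h, against 23.0 and 24.6 CPM at 0 h. In both runs 2 of the 4 genes had fallen in drying, and the undried sums, 50.4 and 49.8 CPM on scaffold 2905 and 58.8 and 59.1 CPM on scaffold 126, lay between the dry and the 3 h sums. The mean log2 fold change over the genes of a run was between 1.93 (scaffold 126) and 2.86 (scaffold 517).

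Of the 5 longest runs of falling genes 3 lay on scaffold 77936. They summed to 20728 and 12414 CPM at 3 h, against 64531 and 51570 CPM at 0 h (5 genes, 40869 to 48903), to 30629 and 18775 CPM at 3 h, against 83716 and 72669 CPM at 0 h (4 genes, 51204 to 61953), and to 7127 and 4502 CPM at 3 h, against 17954 and 21210 CPM at 0 h (5 genes, 109542 to 123647). Every gene of these runs had risen in drying. Read over the scaffold as a whole, after these values were seen, 29 of its 48 tested genes fell (60.4%, against 9.04% of all tested genes) and 0 rose. Of these 48 genes, 39 had risen in drying. Among all genes that had risen in drying 37.1% fell, and among the fifth of tested genes with the highest mean level 32.5% fell. A negative log2 fold change was found for 45 of the 48 (93.75%, against 47.4% of all tested genes), and the median was -1.54, against 0.08. The 48 genes took 7.78% and 6.02% of unscaled counts at 3 h, against 12.33% and 11.7% at 0 h.

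The other runs of falling genes were smaller in level. On scaffold 961 (24079 to 35354) 5 genes summed to 727 and 719 CPM at 3 h, against 1850 and 1776 CPM at 0 h, and 219 and 354 CPM in undried larvae. On scaffold 123 (217235 to 222400) 4 genes summed to 701 and 472 CPM at 3 h, against 2542 and 2701 CPM at 0 h, and 134 and 129 CPM in undried larvae. In both, the 3 h sums were far under the dry ones and still above the undried ones. By gene, 3 of the 5 on scaffold 961 were above the undried level past the threshold and 0 below it. On scaffold 123, 2 of the 4 were above it and 2 below it, so that sum does not hold for each gene. Only 2 of these 4 had risen in drying. In 9 of the 10 runs at least 1 gene lost its call when 1 of the 4 libraries was left out, the exception being that on scaffold 1299. Per total count at least 1 gene of each of the 5 falling runs missed the threshold.

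Many genes moved at 3 h against their direction in drying. Drying, as 48 h against 0 h of dehydration, used none of the 4 libraries, and by the same test 2683 genes (15.1%) had risen and 3233 (18.2%) had fallen in it. Of the genes that had risen in drying, 996 (37.1%) fell at 3 h of rewetting, where 9.04% of all tested genes fell, and 45 (1.68%) rose. Of those that had fallen in drying, 944 (29.2%) rose at 3 h, where 9.84% of all tested genes rose, and 81 (2.51%) fell. The median log2 fold change at 3 h was -0.79 for the genes up in drying and 0.92 for the genes down in drying, against 0.08 for all tested genes. Within batches these medians were -0.77 and -0.78 for the genes up in drying and 0.98 and 0.83 for the genes down in it. Per total count, 57 genes up in drying fell (4.56%, where 0.557% of all tested genes fell) and 3551 genes down in drying rose (53.1%, where 28.1% of all tested genes rose).

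**Figure D4:**
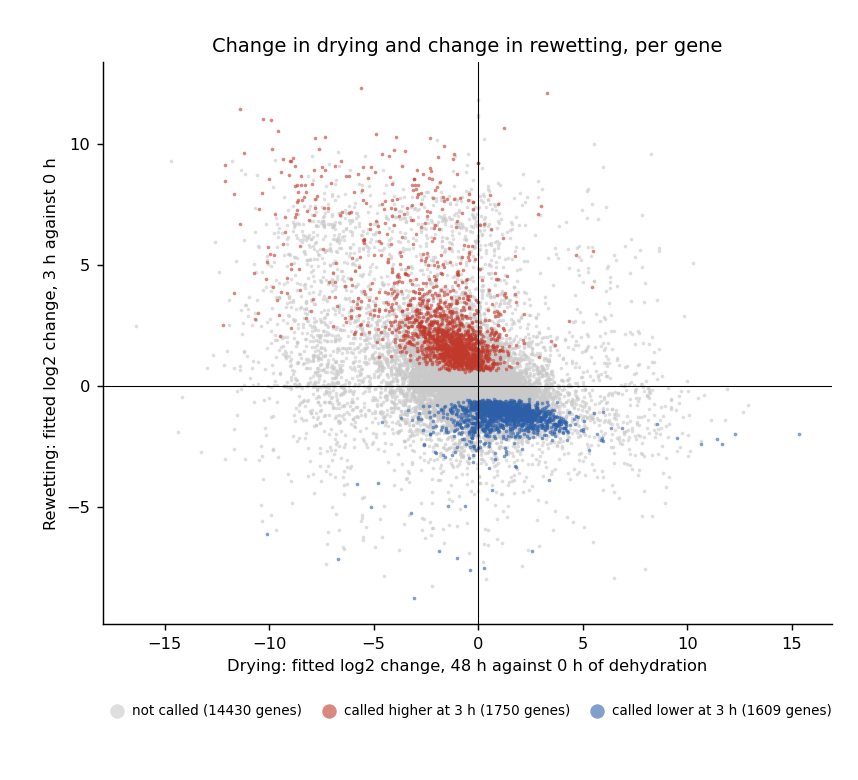
Fitted log2 change in drying (x axis, 48 h against 0 h of dehydration) and in rewetting (y axis, 3 h against 0 h of rehydration), with 1 point per tested gene, colored by its call at 3 h. Genes called higher lie mostly to the left of 0 (944 of 1750 had fallen in drying) and genes called lower mostly to the right (996 of 1609 had risen in drying).

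Genes that rose at 3 h fell into 3 kinds by their history in drying. The 944 that had fallen in drying had a median level of 3.96 and 4.02 log2 CPM at 3 h. At 0 h it was 1.88 and 2.08. In undried larvae it was 4.09 and 3.98, so their median at 3 h lay at the undried level. Genes that had fallen in drying but did not pass as rising at 3 h were left out by this choice. Against undried larvae the median log2 fold change at 3 h was -0.06 for these 944 and -0.92 for all 3233 genes down in drying. The 761 that had not passed in drying had a median of 4.51 and 4.46 log2 CPM at 3 h. At 0 h it was 2.68 and 2.81, and in undried larvae 3.39 and 3.20, so the 3 h median stood above the undried one. These 761 were chosen as rising from a dry level not called different from the undried one, which favours that order. Of them, 319 were above the undried level past the threshold, 1 was below it and 441 did not pass. The 45 that had also risen in drying had a median of 6.83 and 6.62 log2 CPM at 3 h, against 5.43 and 5.53 at 0 h. Undried larvae had 4.61 and 4.19, and all 45 genes were above the undried level past the threshold. These 45 were chosen as rising in both comparisons, so a 3 h level above the undried one was largely fixed by the choice.

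Genes that fell at 3 h had as varied a history. The 996 that had risen in drying had a median of 6.31 and 6.26 log2 CPM at 3 h. At 0 h it was 7.38 and 7.33, and in undried larvae 5.39 and 5.48, so the 3 h medians lay between. Genes that had risen in drying but did not pass as falling at 3 h were left out by this choice. Against undried larvae the median log2 fold change at 3 h was 0.71 for these 996 and 1.14 for all 2683 genes up in drying. The 532 that had not passed in drying had a median of 4.56 and 4.73 at 3 h. At 0 h it was 5.78 and 5.83, and in undried larvae 5.50 and 5.78. These 532 were chosen as falling from a dry level not called different from the undried one, which favours a 3 h median under the undried one. Of them, 240 were below the undried level past the threshold, 0 were above it and 292 did not pass. The 81 that had fallen in drying as well had a median of 4.49 and 4.53 at 3 h, against 5.49 and 5.82 at 0 h. Undried larvae had 7.14 and 7.29, so the 3 h medians lay under both the dry and the undried ones. These 81 were chosen as falling in both comparisons, and that order was largely fixed by the choice. By 48 h of rehydration the medians of these last 2 kinds were 5.11 and 6.04.

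The 3 h larvae were also set against undried larvae directly, a comparison that shares the 3 h libraries with the one above and so is no separate evidence. In it 2027 genes were higher at 3 h (11.4%) and 1516 lower (8.52%). Of the 1750 genes that rose against 0 h, 421 stood above the undried level, 94 below it and 1235 did not pass in either direction. Of the 1609 that fell, 454 were still above the undried level, 327 below it and 828 did not pass. Of the 421, 319 had not passed in drying, 57 had fallen in it and 45 had risen. Not passing does not show that a gene was back at its undried level. Undried libraries were all of batch 1, and the batch term of the fit carries the 3 h library of batch 2.

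Few genes passed the test at 1 h of rewetting, where 1 library was tested and its spread was assumed to be like that of the other groups. By edgeR 1 gene (0.00562%) rose and 0 fell at 1 h against 0 h, with 791 genes at an unadjusted p under 0.05, and DESeq2 called 10 up and 3 down. The gene that rose, named after its values were seen, lies on the plus strand of scaffold 1028 (199555 to 202329, 2 exonic blocks), and had 45.3 CPM at 1 h, against 3.31 and 2.03 CPM at 0 h (edgeR adjusted p = 0.0199). It was at 92.96 and 94.3 CPM at 3 h and at 77.1 and 23.1 CPM in undried larvae, and it had fallen in drying. It was not called at 1 h without either 0 h library.

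Within batch 1 the genes called at 3 h can be followed from 0 to 1 h and 3 h, on differences that share the 0 h library. The genes that rose had a median log2 difference from 0 h of 0.46 at 1 h and 2.01 at 3 h, and 28.2% of them were up by at least 2-fold at 1 h, against 15.6% of all tested genes. The genes that fell had a median of -0.16 at 1 h and -1.10 at 3 h, and 2.80% were down by at least 2-fold at 1 h, against 12.2% of all tested genes. These last 2 shares are of genes at unlike levels, with medians of 119 CPM and 3.57 CPM at 0 h. By direction alone, 75.6% of the genes that fell were lower at 1 h, against 52.8% of all tested genes. Of the genes that rose 75.7% were higher, against 47.2%. Both 0 h libraries took part in the calls that chose these genes, so the direction at 1 h is not free of that choice. PvG011214 was near its 3 h level by 1 h, while PvG005303 lay within the range of its 0 h libraries then.

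After 3 h the median of the genes that rose stayed close to its 3 h level up to 24 h, and that of the genes that fell was lower at each time than at 3 h. Times after 3 h had 1 library each, of batch 1, so they have no replicate check. The median log2 CPM of the genes that rose was 4.28 and 4.26 at 3 h, 4.32 at 6 h, 4.29 at 12 h, 4.20 at 24 h and 3.93 at 48 h. For those that fell it was 5.83 and 5.74 at 3 h, 5.54 at 6 h, 5.32 at 12 h, 5.09 at 24 h and 5.14 at 48 h. Relative to the 3 h library of the same batch, 3.77% of the genes that rose were at least 2-fold higher and 3.54% at least 2-fold lower at 6 h. At 24 h 17.1% were higher and 19.7% lower, so single genes moved while the median stayed close. At 48 h 11.3% were higher and 23.0% lower. Of the genes that fell, 3.48% were lower by a further 2-fold at 6 h and 37.5% at 24 h. Shares over all tested genes were not taken for these times, so these percentages are not shown to be particular to the called genes. The 761 genes that rose and had not passed in drying had a median of 4.50 at 6 h and 3.74 at 48 h. The 944 that had fallen in drying had 4.06 and 4.10.

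**Figure D5:**
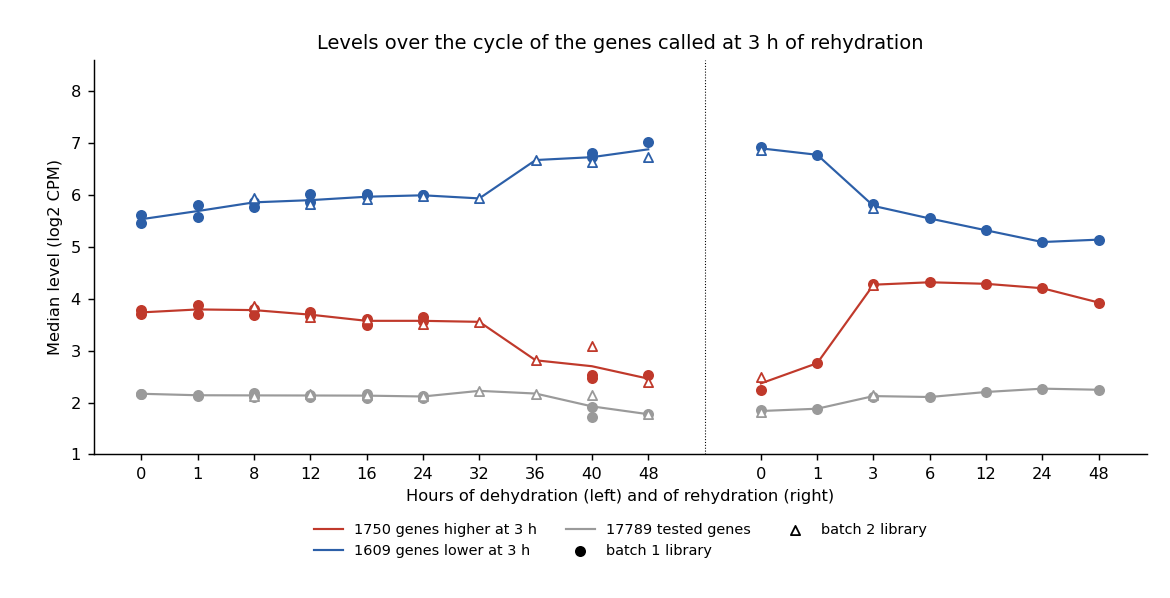
Median level (y axis, log2 CPM) of the genes called higher and lower at 3 h of rehydration and of all tested genes, in every library of the fit (x axis, hours of dehydration and then of rehydration), with filled circles for batch 1, open triangles for batch 2 and lines through the mean of each time. The genes called higher stood at 4.28 and 4.26 at 3 h, against 2.24 and 2.50 at 0 h, and those called lower at 5.83 and 5.74, against 6.92 and 6.87. The calls were made on the 3 h and 0 h libraries, so that step was fixed by the choice of genes.

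As whole profiles, the 3 h libraries were more like the 6 h and 12 h libraries than like the dry ones. Across tested genes, the batch 1 library at 3 h correlated (Pearson) at 0.951 with its partner of batch 2 and at 0.943 with the 6 h one, against 0.854 with the 0 h library of its own batch and 0.814 and 0.836 with undried larvae. For the batch 2 library at 3 h the values were 0.953 with the 6 h library, 0.893 with the 0 h library of its batch, and 0.809 and 0.847 with undried larvae. Both 0 h libraries were nearest to 48 h of dehydration replicate 1, at 0.928 and 0.945, and had 0.922 and 0.928 with the 1 h library. The 3 h libraries had 0.922 (batch 1) and 0.923 (batch 2) with the 12 h library, and values for 24 h and 48 h are not given here. These are correlations across genes, which are not independent replicates.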

How the data were processed

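The authors deposited whole-number counts of reads per gene, without normalization, for 33 libraries, and an annotation of gene models on 6190 scaffolds, where every entry gives SAJR as its source. The submitters' processing notes name TopHat2 as a tool; its version, the genome build and the counting settings are not given in the sources used here. Of the gene models 36.2% overlap another.

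From these counts, 17789 genes that reached 1 CPM in 2 or more of 32 libraries entered edgeR 4.0.16 (with R 4.3.3 and limma 3.58.1): quasi-likelihood F-test, robust dispersions, TMM factors, Benjamini-Hochberg adjustment over all tested genes, adjusted p under 0.05. The fit had a coefficient for each of the 17 times and a batch term, and left out the outlying 1 h library of batch 2. All libraries shared 1 estimate of the spread, and the code was tested on simulated data. Total counts lay between 15015674 and 34179203 per library, and intervals and floors cover counting error only. Printed CPM is TMM-scaled; log2 CPM used a prior count of 2. A library titled 40 h carries a duration of 48 h and was kept at 40 h.

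The batch label pairs the libraries. Across genes, the batch difference at 3 h and that at 0 h had a Pearson correlation of -0.0037. Replicates differed by far more than sampling noise (chi-square per degree of freedom 62.0 at 3 h and 89.1 at 0 h, genes with at least 20 counts), so none was counted as a duplicate.

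Named genes passed the threshold, changed at least 2-fold, averaged 5 CPM or more at the higher time, and had all libraries of one time above those of the other. They were the 2 largest rises and 2 largest falls by log2 fold change, the 5 largest gains and 5 largest losses in CPM, and the 5 longest runs of neighbouring genes in each direction. The comparison, lists and rules were chosen with earlier results of these data known. No gene ID (0 of 28415) matched the reference table, so lists of named genes and tissue markers were not run. Alternatives were DESeq2 1.42.0 and other scalings, filters, batch terms, thresholds and sets of libraries.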

Additional observations from a re-analysis of the deposited data

How the results depend on the processing

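None of the 24 named genes and regions turned direction in any alternative. They were chosen as changed at least 2-fold with the libraries apart, and the alternatives reuse these libraries, so this was largely fixed by the choice. Per total count 353 of the 1609 genes that fell turned sign. With upper quartile factors 39.9% of the calls were up, against 52.1% with TMM factors. The median of all tested genes was then -0.10, against 0.08 with TMM factors. Between 3 h and 0 h of rehydration 1757 genes rose and 1563 fell with no replicate block, and 1811 and 1684 with the replicate block in a fit of only the 4 libraries compared. Per total count 4993 rose and 99 fell, in batch 1 alone 785 and 328, with the outlying 1 h library 139 and 33, and in a test against a 1.5-fold change 972 and 550. Without 1 library they lay between 791 and 1148 up and between 778 and 950 down, and without 0 h replicate 1, which gave the fewest rises, 739 of the 1750 were called up again. For 1 h against 0 h, counts up were 0 per total count, 10 with DESeq2, 3 in batch 1 alone, 0 with rehydration libraries only, 2 with the outlying library and 0 without either 0 h library, and counts down were 3 with DESeq2, 1 without a count filter, 1 in batch 1 alone and 2 with the outlying library, and 0 to 0 without either 0 h library. Against undried larvae 1280 were higher in batch 1 alone, 497 and 457 were higher and lower with the outlying library, 1294 and 1002 against a 1.5-fold change, and 1325 to 1778 and 830 to 1211 without 1 library. Genes down in drying that rose at 3 h numbered 3551 per total count, 378 in batch 1 alone, 59 with the outlying library, 489 against a 1.5-fold change and 484 to 1095 without 1 library, and genes up in drying that fell 57, 211, 22, 342 and 505 to 1010. The share of genes 2-fold higher in batch 1 that were so in batch 2 was 56.6% with a prior count of 8 (22.3% of all tested genes were), 77.2% per total count (50.6%) and 67.5% over genes with a mean of at least 5 CPM (16.9%), and for lower genes 41.95% (15.5%), 12.28% (3.99%) and 62.8% (19.2%). Of 24 named genes and regions, 17 kept their side of the threshold per total count, 7 with the outlying library, 10 in batch 1 alone and 16 against a 1.5-fold change. The cause was not tested beyond what each alternative is made of. Moving the library with conflicting labels to 48 h gave 1690 up and 1565 down at 3 h against 0 h, and leaving it out 1909 and 1626, both tried after seeing the data, and every named call was kept. Moved, it gave 731 genes down in drying that rose and 935 up in drying that fell, and other comparisons were not run for it.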

Other observations

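The genes called at 3 h of rewetting differed in gene structure from the tested genes as a whole. Models with a single exonic block made up 175 of the 1750 genes that rose and 9.51% of those that fell, against 22.2% of all tested genes, and the median exonic length was 1761 and 1575 bases, against 1399. Models with 12 or more blocks made up 7.64% of the genes that fell, 3.94% of those that rose and 3.90% of all tested genes. Among the 694 tested genes with 12 or more blocks 17.7% fell and 9.94% rose, with a median log2 fold change of -0.28, and among the 2044 with 7 to 11 blocks 12.5% fell and 14.8% rose.

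Calls also followed the mean level over all libraries. With the tested genes in 5 equal bins of mean log2 CPM, 32.5% fell and 12.09% rose in the highest bin, 8.38% fell and 18.8% rose in the next, and 0.0843% fell and 1.24% rose in the lowest. The part of level in the differences by exon number was not tested.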
